A study of Mus musculus with 48 samples.

Results

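Fibroblastic reticular cells (FRCs) and lymphatic endothelial cells (LECs) of naive mice, the pair of lymph node stromal cell types that carry podoplanin (gp38) on their surface, were compared gene by gene on Illumina mouse bead arrays. The comparison takes 12 of the 48 arrays of the study, picked by cell type and naive state in the titles, with 3 biological replicates of each cell type and 2 array strips for each replicate, which were averaged. Cells came from digested cervical, axillary, brachial and inguinal lymph nodes of untreated wild-type control animals, whose age and strain the labels do not give. Leukocytes were removed with CD45 beads, and the sort separated FRCs (gp38 without CD31) from LECs (gp38 with CD31) after exclusion of CD45, Ter119 and dead cells. The RNA of an array was combined from several sorts, and the labels call the replicates biological without stating whether they came from separate animals, so p-values measure the spread between these RNA pools. The titles of all cell types in the study carry the word Endothel, and the cell type was taken from the first word of the title and the source label. All FRC arrays shared 1 slide and all LEC arrays another, so slide and cell type cannot be told apart in any difference given here. The same cell types from mice that had received Eμ-*Myc* lymphoma cells intravenously (called tumor, 3 replicates each) lay on the same slides and served as separate RNA samples, but they do not resolve the slide. In such bulk samples, fewer cells of a type and less RNA per cell cannot be told apart.

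Podoplanin is a mucin-like membrane glycoprotein that binds CLEC-2 on platelets and dendritic cells and ERM proteins inside the cell. FRCs are contractile fibroblasts that build and ensheathe the collagen conduits of the node, secrete the chemokines CCL19 and CCL21 and supply survival factors to lymphocytes. LECs line the sinuses and lymphatic vessels, are specified by the transcription factor PROX1, take up lymph-borne material through scavenger receptors and respond to VEGF-C through VEGFR-3.

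Between 962963 and 1033759 beads were read on each of the 12 strips, and the median probe was carried by 20 to 22 beads. The strips of a replicate correlated at 0.992 to 0.994 over probes, FRC replicates with each other at 0.984 to 0.994 and LEC replicates at 0.985 to 0.987 over genes, and FRC with LEC replicates at 0.855 to 0.89. Values are log2 signals, on which a difference of 1 is a 2-fold difference, and the study's arrays reached 16.15 at most. The background level, 3 robust SDs above the most frequent signal, was 5.63. A gene was tested where its brightest probe passed this level in at least 1 of the study's 8 groups, and it was called higher in a cell type at a Benjamini-Hochberg adjusted p under 0.05 from limma. Differences are FRC minus LEC, so negative values are higher in LECs, and folds are computed from them. For a gene that passed this level in no replicate of the dimmer cell type, or whose mean there did not pass it, a lower bound (at least N-fold) was taken from the brighter mean and the level itself. Some other folds rest on a dimmer cell type that passed the level in part. For *Col22a1*, *Reep1* and *Vegfd* 1 of its replicates did, and for *Astn1*, *Cdh3*, *Clec4g*, *Col5a3*, *Dll4*, *Gpr182*, *Hoxc4*, *Hoxc9*, *Ifi205*, *Lrp1*, *Lyve1*, *Mfap4*, *Nos3*, *Pcdh17*, *Prox1*, *Samsn1*, *Stra6*, *Tie1* and *Xpnpep2* 2 did. Of 2584 called genes with more than 1 probe above background, 54 had another probe that differed by at least 0.5 in the opposite direction, and *Col26a1*, *Itih5*, *Mbp* and *Rarres2* are those among the genes eligible to be named.

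*Pdpn*, the gene of the antigen that both sorts required, did not pass the test, whereas markers of each lineage differed widely. *Pdpn* (chromosome 4 of GRCm38, 143267409 to 143299564) had log2 signals of 14.31, 14.41 and 14.49 in FRC replicates 1 to 3 and 14.13, 14.07 and 14.39 in LEC replicates 1 to 3. The replicates overlapped, and the difference was 0.21 (SE 0.13, 95% interval -0.1 to 0.52, adjusted p = 0.24). In the sorts gated without gp38 its mean was 8.81 in BECs (blood endothelial cells) and 11.25 in DN cells, which carry neither antigen. *Prox1*, which encodes the regulator of lymphatic fate, had 5.77, 5.47 and 7.53 in FRCs and 13.2, 13.23 and 13.37 in LECs. Its signal was 129-fold higher in LECs (difference -7.01, SE 0.49, adjusted p = 2.1e-05), and FRC replicate 3 stood above the other FRC replicates. *Col1a1*, a chain of collagen-I, had 14.66, 14.54 and 14.41 in FRCs and 8.69, 9.53 and 7.96 in LECs, which is 55.9-fold higher in FRCs (difference 5.81, SE 0.35, adjusted p = 1.2e-05). *Pecam1*, which encodes the sort antigen CD31, was 79.3-fold higher in LECs, with 13.55, 13.57 and 13.73 there and 8.76, 5.81 and 7.35 in FRCs. *Ptprc*, the gene of CD45, was not tested, because none of its 4 probes passed the background level in any group. No replicate went against its label on these markers.

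**Figure D1:**
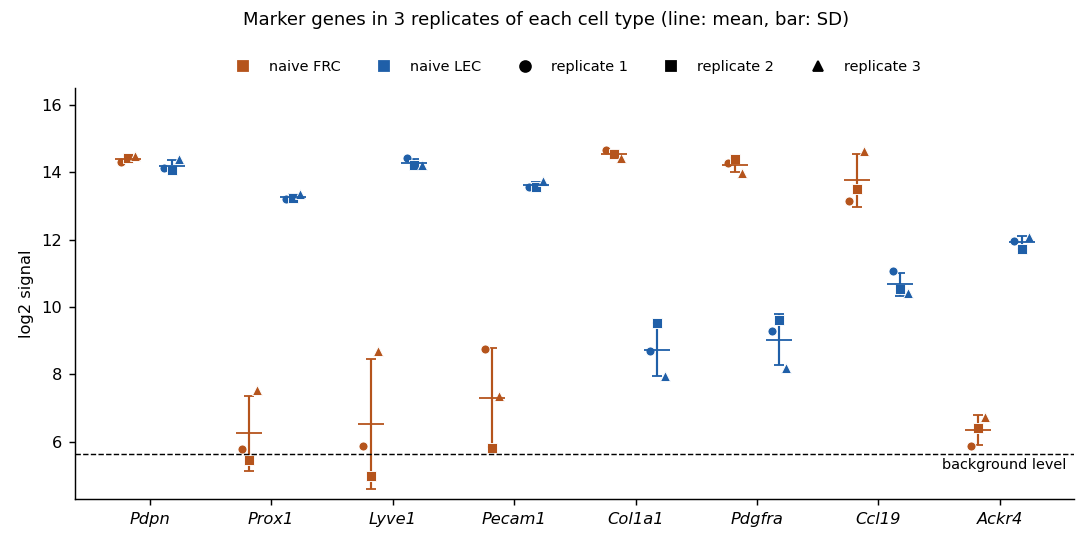
Log2 signal (vertical axis) of 8 marker genes in naive FRCs (brown) and naive LECs (blue). Each symbol is 1 replicate, the horizontal line is the mean of 3, the bar is the SD and the dashed line is the background level of 5.63. The groups overlap for *Pdpn* alone, while FRC replicate 3 (triangle) lies highest of the FRCs for *Prox1* and *Lyve1*, FRC replicate 1 (circle) for *Pecam1* and LEC replicate 2 (square) highest of the LECs for *Col1a1*.

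Each cell type carried low signals of genes that marked the other, unequally among replicates. Of the 131 genes at least 16-fold higher in LECs, 65 had their highest FRC signal in FRC replicate 3, 55 in replicate 1 and 11 in replicate 2, with medians of 6.64, 6.41 and 5.75. Of the 183 genes at least 16-fold higher in FRCs, 133 had their highest LEC signal in LEC replicate 2, 40 in replicate 1 and 10 in replicate 3, with medians of 6.9, 6.55 and 6.13. The lymphatic gene *Lyve1* read 5.87, 4.99 and 8.68 in FRCs, and the fibroblast gene *Pdgfra* read 9.29, 9.61 and 8.18 in LECs. The part of these signals in the differences was not tested. Without FRC replicate 3 and LEC replicate 2, 2618 genes were higher in FRCs and 2849 in LECs, and *Prox1* differed by -7.66 and *Col1a1* by 6.27. This fit was not planned. Its left-out replicates were those highest for genes of the other cell type, so wider differences of such genes follow from the choice.

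Of 13041 genes tested, 2750 (21.1%) were higher in FRCs and 3122 (23.9%) in LECs. The difference was at least 2-fold for 1506 and 1325 of them. LECs had no replicate above the background level for 487 of the genes higher in FRCs, and FRCs had none for 387 of those higher in LECs. The median difference over all genes was -0.05. In tumor mice, 2279 genes (17.5%) were higher in FRCs and 2464 (18.9%) in LECs. Of the genes called in naive mice, 1723 of those higher in FRCs and 1901 of those higher in LECs passed the test in the same direction in tumor mice, 1012 and 1196 did not pass there, and 15 and 25 passed in the opposite direction.

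**Figure D2:**
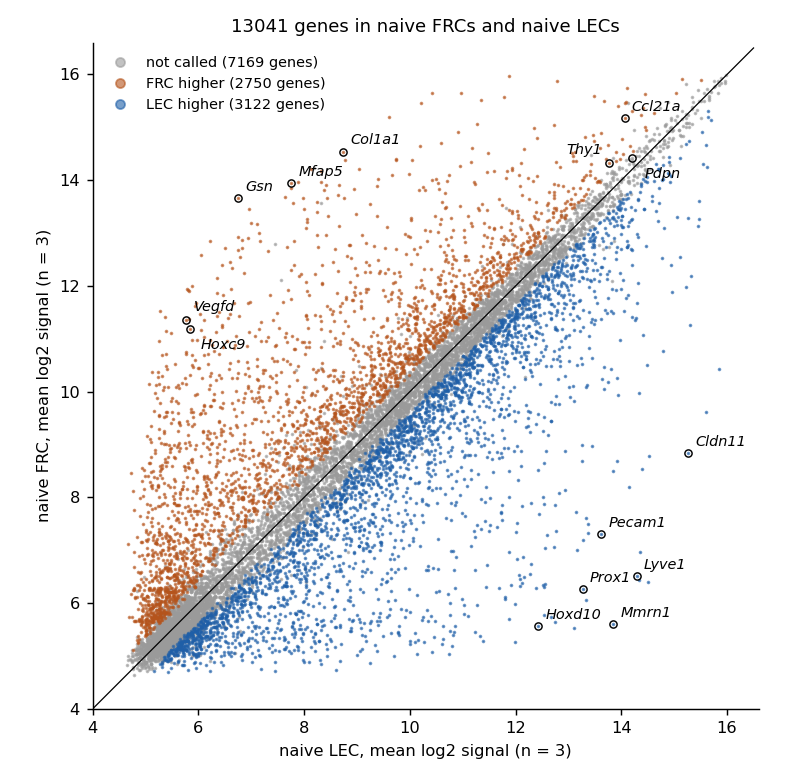
Mean log2 signal of 13041 genes in naive LECs (horizontal axis, n = 3) and naive FRCs (vertical axis, n = 3), with genes higher in FRCs in brown, genes higher in LECs in blue and genes that did not pass in gray. *Pdpn* and *Thy1* lie near the line of equal signal at the bright end, *Mmrn1*, *Lyve1*, *Prox1* and *Hoxd10* at the lower right and *Gsn*, *Mfap5* and *Col1a1* at the upper left.

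The 15 largest differences toward LECs, among genes picked for replicates that do not overlap, were led by *Mmrn1*, *F8* and *Clec4g*. *Mmrn1*, which encodes the lymphatic glycoprotein multimerin-1, read 13.73, 13.78 and 14 in LECs and 4.97, 4.86 and 6.96 in FRCs and was at least 295-fold higher in LECs (adjusted p = 1.3e-05). *F8*, coagulation factor VIII, read 14.4, 14.64 and 14.48 against 5.73, 5.67 and 7.82 (275-fold), and *Clec4g*, a C-type lectin, 14.07, 14.45 and 14.47 against 5.95, 5.42 and 7.91 (239-fold, with -0.24 at another probe). The hyaluronan receptor *Lyve1* (220-fold), the mannose receptor *Mrc1* (at least 177-fold) and the scavenger receptor *Stab2* (167-fold) followed. Next came the orphan receptor *Gpr182* (155-fold), the signaling adaptor *Samsn1* (137-fold), *Prox1*, *Reep1* (121-fold), *Hoxd10* (at least 111-fold) and *Astn1* (108-fold). *Cldn11*, a claudin of tight junctions, reached 15.19, 15.22 and 15.36 in LECs, near the top of the array's range, against 8.3, 8.19 and 10.02 in FRCs (85.8-fold). The cannabinoid receptor gene *Cnr2* had no FRC replicate above background and was at least 81.8-fold higher in LECs. All of these genes read highest in FRC replicate 3 among the FRCs, and *Samsn1* and *Hoxd10* were near background in every FRC replicate, at 5.72, 5.45 and 5.76 and 5.42, 5.32 and 5.99. Each of the 15 genes, *Pecam1* among them, was also higher in LECs of tumor mice.

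Upstream sequences were read for genes that differed at least 16-fold, because many of those higher in LECs encode endothelial proteins and the ETS factors that endothelial cells use bind around a GGAA core. In the 250 bases before the annotated start, the letters CAGGAAG, on either strand, occurred for 32 of the 100 genes at least 16-fold higher in LECs that have a RefSeq promoter (32%). The share was 12.1% of all 27025 genes with a promoter, 10.8% of the 130 such genes at least 16-fold higher in FRCs and 11% of the genes of near-equal signal described below. The shorter AGGAAG, which CAGGAAG contains, was found for 54%, 32.3%, 32.3% and 30% of these sets, and the longer CAGGAAGT for 7%, 3.13%, 3.85% and 3.02%. In all, 15 motifs were searched on both strands. The shares of the other 12 are given for the LEC set, the FRC set and all genes with a promoter, in this order. For SOX factors, ACAAAG stood at 15%, 13.1% and 18.6% and ACAATG at 7%, 6.92% and 12.2%, and for GATA factors GATAAG stood at 11%, 6.15% and 7.6%. Of the E-boxes, CAGATG for TWIST or TAL1 stood at 24%, 26.9% and 16.3%, CATATG at 5%, 3.85% and 3.98%, CACCTG for ZEB and SNAI factors at 25%, 10% and 19.4% and CACGTG for MYC-like factors at 3%, 8.46% and 6.86%. The AP-1 site TGACTCA stood at 6%, 10.8% and 5.16%, the EBF site CCCNNGGG at 22%, 20.8% and 13.4% and its longer form TCCCNNGGG at 13%, 10% and 6.45%. The NF-kappaB site GGGNNTTCC stood at 10%, 3.08% and 5.61% and the TATA box TATAAA at 11%, 13.8% and 14.3%. Several motifs thus had shares in 1 or both sets above or below that of all genes. Both sets were drawn from the genes tested, 10459 of which have a promoter. Shares of these were 12.2% for CAGGAAG, 15.2% for ACAAAG, 8.07% for ACAATG, 5.95% for GATAAG, 2.08% for CATATG, 18.3% for CCCNNGGG, 9.46% for CACGTG and 9.55% for TATAAA. Beside them, both sets lay above for TATAAA. The FRC set lay below for CACGTG and above for GATAAG and CATATG. Each of these is the reverse of the reading beside all genes. These shares are descriptions without a test, and a match is not a bound site. Shown are the 250 bases before the start of 3 genes of endothelial cells that hold CAGGAAG or its reverse complement and, for contrast, of *Pdpn*, which holds neither, from RefSeq on GRCm38.p6, 5′ to 3′ on the strand of the gene, with the match in capitals.
Mrc1, chr2:14229164-14229413, plus strand: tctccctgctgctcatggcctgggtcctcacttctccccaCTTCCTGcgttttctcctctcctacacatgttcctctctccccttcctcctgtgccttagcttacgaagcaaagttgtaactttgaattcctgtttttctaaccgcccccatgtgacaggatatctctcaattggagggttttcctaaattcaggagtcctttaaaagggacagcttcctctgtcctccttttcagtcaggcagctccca
Robo4, chr9:37401722-37401971, plus strand: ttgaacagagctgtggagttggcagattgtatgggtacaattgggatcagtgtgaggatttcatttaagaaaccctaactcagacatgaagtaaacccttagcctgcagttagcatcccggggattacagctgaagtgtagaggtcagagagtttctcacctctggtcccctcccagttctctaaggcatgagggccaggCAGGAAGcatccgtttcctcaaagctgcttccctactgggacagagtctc
Rasip1, chr7:45627287-45627536, plus strand: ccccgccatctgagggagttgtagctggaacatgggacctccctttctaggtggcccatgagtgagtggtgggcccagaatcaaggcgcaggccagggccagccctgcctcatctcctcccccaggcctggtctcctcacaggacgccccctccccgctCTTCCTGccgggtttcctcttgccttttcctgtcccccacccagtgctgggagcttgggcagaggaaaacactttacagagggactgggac
Pdpn, chr4:143299565-143299814, minus strand: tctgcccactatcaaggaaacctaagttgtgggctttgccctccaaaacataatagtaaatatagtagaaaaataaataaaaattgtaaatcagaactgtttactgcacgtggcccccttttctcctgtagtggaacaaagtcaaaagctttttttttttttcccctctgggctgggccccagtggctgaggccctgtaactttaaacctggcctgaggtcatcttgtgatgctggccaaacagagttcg

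The 15 largest differences toward FRCs, picked in the same way, were led by *Gsn*. *Gsn*, which encodes the actin-severing protein gelsolin, read 13.94, 13.84 and 13.21 in FRCs and 6.36, 7.55 and 6.34 in LECs, a 120-fold difference (adjusted p = 4.9e-06), and differed by 0.86 at another probe. *Pcolce2*, an enhancer of procollagen cleavage, read 13.07, 12.74 and 11.96 against 5.8, 6.53 and 5.82 (92.9-fold), and *Dpep1*, a membrane dipeptidase, 13.63, 13.76 and 12.96 against 7.45, 7.49 and 5.95 (89.6-fold). *Ifi205*, an interferon-inducible gene, differed 98.1-fold, *Ptgis*, which encodes prostacyclin synthase, 73.9-fold, and *Itga11*, the integrin chain of a collagen receptor, 71.7-fold. The microfibril genes *Mfap5* (73.2-fold) and *Mfap4* (71.5-fold), the fibroblast membrane protein gene *Lrrc15* (72.4-fold), the transcription factor gene *Osr2* (69.1-fold) and the IGF-binding protein gene *Igfbp6* (67-fold) belonged to the same 15, with *Xpnpep2*, *Islr*, *Scg3* and *Htra3* between 67.8-fold and 69.3-fold. In each of the 15, LEC replicate 2 was the highest of the LECs, and the gene was also higher in FRCs of tumor mice.

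Genes of lymphatic identity were higher in LECs with a single exception. Of 16 on the list, 15 were higher in LECs and 1 in FRCs, with a median difference of -3.76 beside -0.05 for all genes. *Tbx1*, a transcription factor gene (68.3-fold), *Foxc2*, which shapes lymphatic valves (at least 11-fold, 9.08, 8.96 and 9.24 in LECs and 4.85, 5.15 and 5.39 in FRCs), *Flt4*, the receptor of VEGF-C (at least 10.9-fold), and *Itga9*, an integrin of valves (8.04-fold), were higher in LECs. *Reln*, the secreted glycoprotein reelin, read 13.89, 13.87 and 13.65 in LECs and 9.9, 10.35 and 10.99 in FRCs, well above background in both. The exception was *Ccl21a*, a chemokine that both cell types are known to make, with 14.74, 14.92 and 15.86 in FRCs and 14.31, 14.1 and 13.79 in LECs. It was 2.16-fold higher in FRCs (adjusted p = 0.019), and its signals lay near the top of the range. It did not pass without LEC replicate 2 (1.13, adjusted p = 0.05) or LEC replicate 3 (0.97, adjusted p = 0.063). The array cannot be relied on to separate the near-identical *Ccl21a* and *Ccl21c*, and both read alike.

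Genes shared by blood and lymphatic endothelium followed the same direction. Of 38 tested, 32 were higher in LECs and 6 did not pass, with a median of -4.46. *Nos3*, endothelial nitric oxide synthase (75.1-fold), *Rasip1*, a regulator of vessel lumens (65.8-fold), *Cldn5* of tight junctions (63.2-fold), the receptor gene *Tie1* (53.3-fold), *Fli1*, an ETS factor (at least 16-fold), and *Cdh5*, VE-cadherin (52.9-fold), were among them. *Vwf*, von Willebrand factor, read 9.84, 10.56 and 10.26 in LECs and 10.03, 8.02 and 8.39 in FRCs and did not pass (difference -1.4, adjusted p = 0.051), and neither did *Ly6c1* (0.86, adjusted p = 0.087). Without FRC replicate 1 *Vwf* passed toward LECs (-2.01, adjusted p = 0.0011), and without LEC replicate 2 *Ly6c1* passed toward FRCs (1.32, adjusted p = 0.00071). *Kdr*, *Erg* and *Clec14a* did not pass either, and their LEC means of 5.47, 5.68 and 5.34 lay near or under the background level, where these probes give little measure of a level. Among endothelial transcription factors, 22 of 29 were higher in LECs and 2 in FRCs (median -1.88). *Hhex* (52.8-fold), *Tal1* (at least 35.9-fold) and *Lyl1* (at least 22-fold), regulators known from blood and endothelial development, had LEC means of 10.09 to 12.27. *Tbx3* (2.64-fold) and the flow-responsive *Klf4* (1.32-fold) were higher in FRCs.

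Some markers of blood endothelium were bright in the LEC sort. Of 14 tested, 10 were higher in LECs than in FRCs, 1 in FRCs and 3 did not pass (median -1.92), beside 23.9% of all genes higher in LECs. *Ackr1* (-0.31) and *Ly6c1* (0.86) were among those that did not pass. The list is not exclusive, since *Plvap*, for example, is also on the list of genes shared by blood and lymphatic endothelium. *Glycam1*, the L-selectin ligand of high endothelial venules, read 14.91, 14.8 and 15.1 in LECs and 12.76, 11.97 and 12.48 in FRCs, beside a mean of 15.57 in the BEC sort. *Plvap*, the diaphragm protein of endothelial fenestrae, read 15.22, 15.35 and 15.36 in LECs, 12.26, 11.85 and 12.44 in FRCs and 15.62 in BECs. Median signals of the list were 9.37, 6.77 and 7.67 in FRC replicates 1 to 3 and 9.46, 10.41 and 10.24 in the LEC replicates, so FRC replicate 1 stood near the LECs on this list. *Cd34*, which marks both capillaries and a subset of fibroblasts, was 8.43-fold higher in FRCs. The part of blood endothelial RNA in the differences was not tested.

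Receptors that take up material from lymph and other genes of sinus LECs were mostly higher in LECs. Of 21 scavenger and uptake receptors, 13 were higher in LECs and 5 in FRCs (median -1.76), and of 15 sinus genes, 12 and 2 (median -3.78). *Marco*, a scavenger receptor of medullary sinuses, read 12.49, 12.37 and 12.28 in LECs and 5.89, 5.88 and 7.07 in FRCs (68.4-fold), *Scarf1* differed 49.9-fold and *Msr1* at least 13.5-fold. *Ackr4*, the scavenging receptor for CCL19 and CCL21 on the ceiling of the subcapsular sinus, read 11.97, 11.71 and 12.07 in LECs and 5.87, 6.41 and 6.74 in FRCs (47.9-fold, adjusted p = 2.1e-06), with differences from -5.58 to -0.53 over its 4 probes. *Madcam1* (15.8-fold) and *Ccl20* (at least 11.5-fold), genes of LECs on the sinus floor, and *Itga2b* (10.5-fold) were higher in LECs. In FRCs, *Lrp1*, a receptor that clears proteases and lipoproteins, was 34.4-fold higher, *Vldlr* 4.43-fold and the collectin gene *Colec12* 3.45-fold. *Ptx3*, a pentraxin of the matrix, was 6.8-fold higher in FRCs although it stands on the sinus list. Among the atypical chemokine receptors, *Ackr4*, *Ackr2* (6.96-fold) and *Ccrl2* (2.05-fold) were higher in LECs, and *Ackr1* (-0.31) and *Ackr3* (-0.01) did not pass.

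Junction and leukocyte adhesion genes were more often higher in LECs than in FRCs, and their FRC shares were near or under that of all genes. Over all genes, 23.9% were higher in LECs and 21.1% in FRCs. Of 25 junction genes, 12 were higher in LECs, among them *Cldn11*, *Cldn5*, *Pcdh17* (34.9-fold), *Jam3* (13.5-fold) and *F11r* (10.9-fold), which encode claudins, a protocadherin and JAM proteins. The 5 higher in FRCs were *Cdh3* (7.98-fold), *Cldn1* (5.58-fold), *Gjc1*, *Cdh1* and *Cdh11*, of which *Cdh1* is also among the epithelial markers described below. The gap junction gene *Gja1* had 14.81, 14.81 and 14.61 in FRCs and 14.51, 14.92 and 14.7 in LECs. Of 18 adhesion molecules, 12 were higher in LECs and 1, *Cd34*, in FRCs (median -2.39). *Sele* (10.7-fold) and *Selp* (8.54-fold), the endothelial selectins, and *Alcam* (6.19-fold) were higher in LECs. *Vcam1*, a ligand for VLA-4 often used to mark FRCs, read 14.07, 14.34 and 13.97 in LECs and 12.32, 12.67 and 13.36 in FRCs, 2.54-fold higher in LECs (adjusted p = 0.0045). Of 18 integrin genes, 7 were higher in LECs and 4 in FRCs (median -0.29). *Itga11* and *Itgb5* (14.5-fold), with *Itga8* and *Itgb7*, were those higher in FRCs, and *Itgb1*, the shared beta chain, differed by -0.06 (95% interval -0.36 to 0.23).

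Fibroblast identity genes were mostly higher in FRCs, and a few were also bright in LECs. Of 30, 25 were higher in FRCs, 3 in LECs and 2 did not pass (median 4.29). *Col1a2* (65.4-fold), *Col3a1* (40.8-fold), *Fap* (40.5-fold), *Mmp2* (37.2-fold) and *Pdgfra* (36.6-fold), which encode matrix proteins, matrix proteases and the PDGF receptor of fibroblasts, were higher in FRCs. *Thy1*, the glycoprotein CD90, read 14.23, 14.42 and 14.32 in FRCs and 13.84, 13.6 and 13.86 in LECs, a 1.47-fold difference, and in tumor mice it was higher in LECs (-1.32). *Dcn*, the proteoglycan decorin, read 15.44, 15.46 and 15.34 against 14.05, 13.98 and 13.76 (2.79-fold), so LECs held high signals of both. BEC and DN means were 9.96 and 11.75 for *Thy1* and 11.92 and 14.84 for *Dcn*. The 3 list members higher in LECs were *Meox1* (4.99-fold), *Meox2* (2.5-fold), both homeobox genes, and *Vcam1*. Of 26 mesenchymal transcription factors, 18 were higher in FRCs and 4 in LECs (median 1.86). *Twist2* (40.9-fold), *Prrx1* (34.7-fold), *Twist1* (24.3-fold) and *Osr1* (21-fold), regulators of mesenchymal development, were higher in FRCs, while *Foxp2* (at least 4.43-fold) and *Zeb1* (1.36-fold) were higher in LECs beside *Meox1* and *Meox2*.

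Matrix genes were mostly higher in FRCs, and many also read above the background level in LECs. In each LEC replicate, 7 to 8 of 11 fibrillar and 12 to 13 of 18 other collagen genes were above it. Median signals of the fibrillar list were 6.22, 6.57 and 6.1 in LEC replicates 1 to 3, close to the level of 5.63. LEC replicate 2, the highest, was also the highest of the LECs for 133 of the 183 genes at least 16-fold higher in FRCs. Of 11 fibrillar collagen genes, 7 were higher in FRCs and 1 in LECs (median 3.8), and of 18 other collagens 13 and 1 (median 1.98). Beside the chains of collagen-I and *Col3a1*, the regulatory chains *Col5a2* (at least 25.3-fold), *Col5a3* (23-fold) and *Col5a1* (13.9-fold) and the beaded-filament chains *Col6a2* (37.3-fold) and *Col6a1* (17.9-fold) were higher in FRCs. *Col22a1*, a collagen of tissue junctions, went the other way with 10.05, 10.49 and 10.52 in LECs and 5.18, 5.18 and 6.62 in FRCs (25.9-fold). Of 22 basement membrane genes, 18 were higher in FRCs and 2 in LECs, by less (median 1.23). The main collagen-IV chains *Col4a1* (1.96-fold) and *Col4a2* (2.37-fold) were bright in both, with means of 14.4 and 13.49 in LECs. The laminin chains *Lama2* (61.8-fold) and *Lamc3* (52.4-fold) had LEC means of 6.74 and 6.63, and another *Lama2* probe, dim in both cell types, differed by 0.7. *Lama5*, the laminin chain of endothelial basement membranes (2.46-fold), and *Agrn*, agrin (1.68-fold), were higher in LECs.

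Of 40 matrix glycoproteins and proteoglycans, 28 were higher in FRCs and 6 in LECs (median 2.07). *Ogn* (38.3-fold) and *Tnxb* (24.6-fold), a leucine-rich proteoglycan and a tenascin, were higher in FRCs, as was *Fn1*, fibronectin, at 14.6, 14.62 and 14.32 against 11.52, 11.27 and 11.65 (8.19-fold). The 6 higher in LECs were *Mmrn1*, *Mmrn2*, *Reln*, *Tnc*, *Smoc1* and *Ltbp2*, and tenascin-C, the product of *Tnc*, had signals of 14.66, 14.17 and 14.38 in LECs and 10.59, 11.05 and 11.58 in FRCs (10.1-fold). Collagen processing genes were higher in FRCs for 16 of 21 and in LECs for 3 (median 1.18). *Loxl1* (38-fold) and *Lox* (15.1-fold), which crosslink collagen and elastin, and *Pcolce* (20.7-fold) led, and *Plod1* (0.08) and *Plod3* (0.06), lysyl hydroxylases, were of near-equal signal. Of 24 matrix peptidases and their inhibitors, 11 were higher in FRCs and 6 in LECs (median 0.34), the latter near the 23.9% of all genes. *Mmp3* (44.8-fold), *Adamts12* (25.2-fold) and *Mmp23* (24-fold) were higher in FRCs, beside *Mmp2*. *Mmp9*, gelatinase B, read 11.85, 12.58 and 12.47 in LECs and 7.21, 7.45 and 9.04 in FRCs (21.1-fold), and *Mmp13*, a collagenase, 10.85, 10.64 and 11.45 against 5.88, 6.3 and 6.03 (30.1-fold, with differences from -4.91 to -0.08 over its 3 probes). The inhibitors differed too, with *Timp4* at least 36.9-fold and *Timp3* 2.37-fold higher in LECs and *Timp1* 4.57-fold higher in FRCs.

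**Figure D3:**
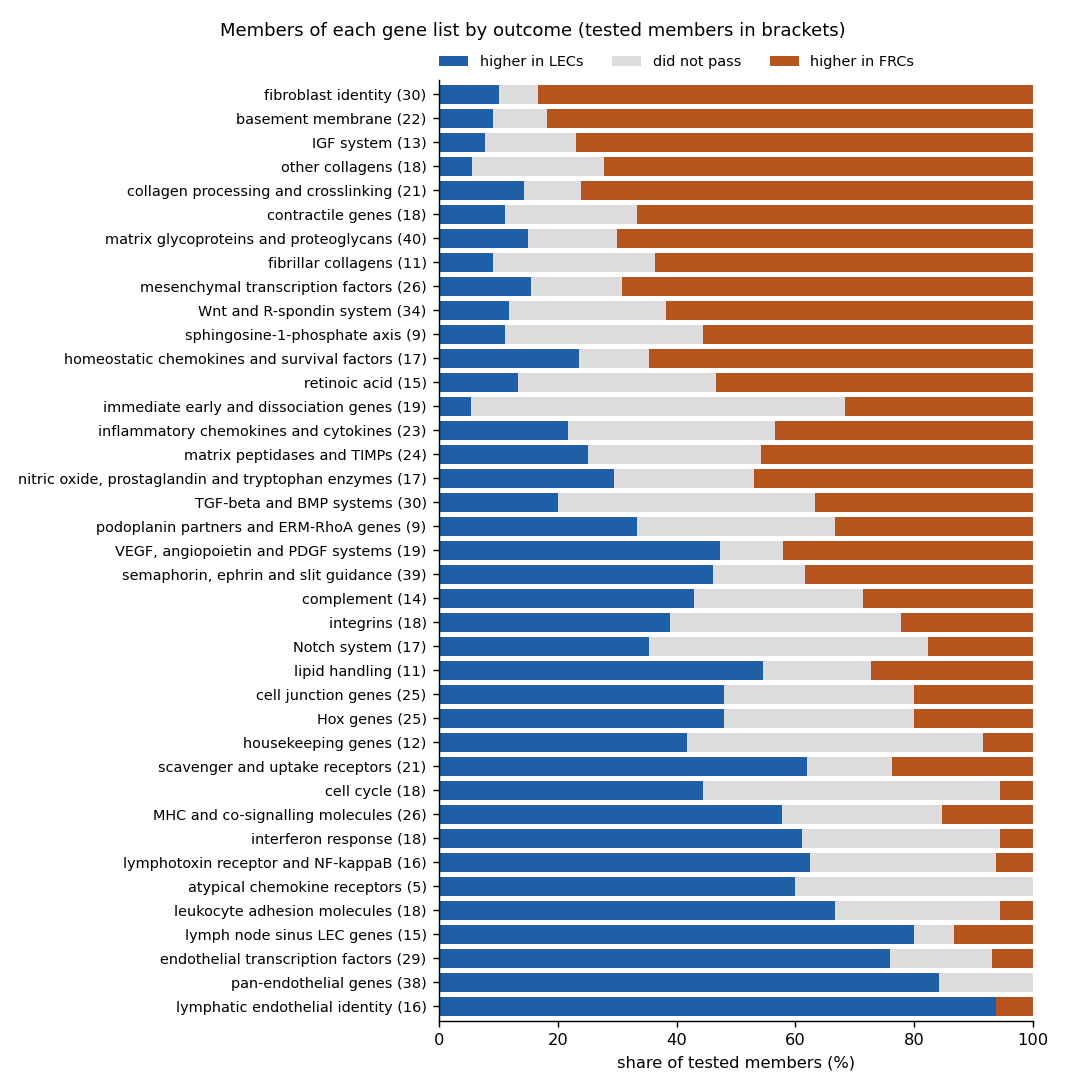
Share of the tested members of 39 gene lists (horizontal axis, percent) that were higher in naive LECs (blue), did not pass (gray) or were higher in naive FRCs (brown), with the number of tested members in brackets. Fibroblast, basement membrane and collagen lists lie at the top and endothelial and lymphatic lists at the bottom, and over all genes 21.1% were higher in FRCs and 23.9% in LECs.

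Homeostatic chemokines and survival factors were higher in FRCs for 11 of 17 genes and in LECs for 4 (median 0.66), beside 21.1% and 23.9% of all genes. *Ccl19*, the ligand of CCR7, read 13.14, 13.5 and 14.63 in FRCs and 11.06, 10.54 and 10.42 in LECs (8.48-fold, adjusted p = 0.00042). *Cxcl13*, which attracts B cells, differed 6.34-fold, *Tnfsf13b*, the B cell survival factor BAFF, 13.5-fold, and *Il34* 11.9-fold. *Ccl19*, *Cxcl13* and *Ccl21a* were each highest in FRC replicate 3. *Il7*, which T cells need to survive, read 10.84, 10.89 and 11.81 in FRCs and 11.55, 11.44 and 11.53 in LECs, overlapped and did not pass (difference -0.33, 95% interval -0.92 to 0.27, adjusted p = 0.34). Without FRC replicate 3 it passed toward LECs (-0.64, adjusted p = 0.0047). *Dll4* (8.86-fold), *Dll1* (3.33-fold), the alarmin *Il33* (2.12-fold) and the macrophage factor *Csf1* (1.89-fold) were higher in LECs. Of 23 inflammatory chemokines and cytokines, 10 were higher in FRCs and 5 in LECs (median 0.57). *Cxcl14* (37-fold) and the eosinophil attractant *Ccl11* (22.8-fold) led toward FRCs, and *Ccl20*, *Csf3* (at least 4.71-fold, with another, near-background probe at 0.24), *Csf2*, *Cxcl10* (2.66-fold) and *Cxcl9* (2.14-fold) were higher in LECs. *Cxcl1* read 15.46, 15.66 and 15.82 in FRCs and 14.83, 15.15 and 15.12 in LECs, bright in both.

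Components of NF-kappaB signaling were mostly higher in LECs. Of 16, 10 were higher in LECs and 1 in FRCs (median -0.8). The adaptor *Traf1* (10.3-fold), the inhibitor *Nfkbie* (4.4-fold) and the non-canonical genes *Relb* (3.26-fold), *Map3k14* (2.48-fold) and *Nfkb2* (2.39-fold) were among them. *Ltbr*, the lymphotoxin beta receptor, was of near-equal signal, with 8.94, 9.33 and 9.4 in FRCs and 9.45, 9.12 and 9.17 in LECs. RANK, its relative encoded by *Tnfrsf11a*, was 13.7-fold higher in LECs, while its ligand *Tnfsf11* was 3.88-fold and the decoy receptor *Tnfrsf11b* at least 3.95-fold higher in FRCs.

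Several ligands and receptors were divided between the cell types. Of 36 pairs, chosen with earlier results of these data known, 30 had both genes tested. In 11 the ligand was higher in FRCs and the receptor in LECs, and in 4 the ligand was higher in LECs and the receptor in FRCs. Another 5 had both partners higher in the same cell type. Of all genes, 21.1% were higher in FRCs and 23.9% in LECs. The 11 pairs are not independent, since *Flt4*, *Ackr4* and *Robo4* each recur among their receptors. Of 19 genes of the VEGF, angiopoietin and PDGF systems alone, 8 were higher in FRCs and 9 in LECs (median 0.14). The lymphatic growth factor genes *Vegfc* (11.56, 11.5 and 11.49 in FRCs, 8.21, 9.02 and 8.39 in LECs, 7.86-fold) and *Vegfd* (11.67, 11.82 and 10.59 against 5.5, 6.4 and 5.41, 48.2-fold) were higher in FRCs, and their receptor *Flt4* read 5.5, 5.78 and 5.3 in FRCs and 9.17, 8.83 and 9.24 in LECs. *Pgf* was 3.03-fold higher in FRCs and its receptor *Flt1* 9.34-fold higher in LECs. *Slit3* (22.2-fold) and *Slit2* (6.64-fold) were higher in FRCs, and the endothelial *Robo4* in LECs (53.8-fold), with 10.58, 6.74 and 9.01 in the FRC replicates and smaller differences at its other probes (-1.69 and -0.26). *Pdgfb* ran the other way, with 12.54, 12.7 and 12.75 in LECs and 9.43, 9.03 and 9.88 in FRCs, where its receptor *Pdgfrb* was 18.4-fold higher. *Reln* was higher in LECs and its receptor *Vldlr* in FRCs. *Wnt5a* (20.1-fold) and its receptor *Ror2* (30.8-fold) were both higher in FRCs, as were *Fgf7* (17.6-fold) and *Fgfr2* (3.25-fold). *Dll4* and *Notch1* (2.41-fold), *Efnb2* and *Ephb4* (2.22-fold), and *Angpt2* and *Tek* (1.91-fold) were higher in LECs on both sides. *Axl*, a receptor of the survival factor GAS6, was 16-fold higher in FRCs while *Gas6* differed by -0.04.

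**Figure D4:**
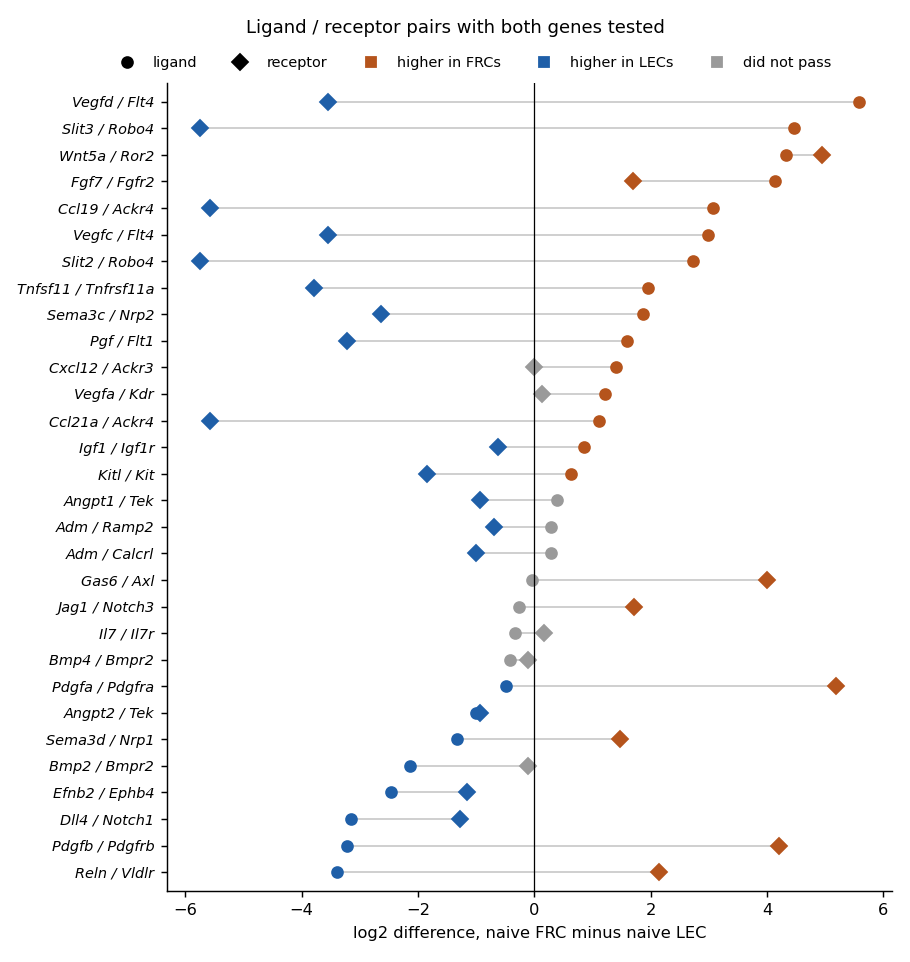
Log2 difference between naive FRCs and naive LECs (horizontal axis) for the ligand (circle) and the receptor (diamond) of 30 pairs, in brown where the gene was higher in FRCs, in blue where it was higher in LECs and in gray where it did not pass. The widest gaps are those of *Slit3* and *Robo4*, *Vegfd* and *Flt4*, and *Ccl19* and *Ackr4*, each with the ligand on the FRC side.

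Wnt genes were higher in FRCs for 21 of 34 and in LECs for 4 (median 1.07), beside 21.1% and 23.9% of all genes. The secreted inhibitor *Sfrp2* (at least 44.4-fold), *Ror2*, *Wnt5a*, *Fzd2* (at least 14.8-fold) and the Wnt enhancer *Rspo3* (8.44-fold) were higher in FRCs, and *Fzd6*, a Frizzled receptor, read 10.73, 10.9 and 10.86 in LECs and 6.49, 6.62 and 6.74 in FRCs (18.5-fold). In the TGF-beta and BMP systems, 11 of 30 were higher in FRCs and 6 in LECs (median 0.1), the latter under the share of all genes. The BMP regulators *Bmper* (61.4-fold) and *Chrd* (33.8-fold) were higher in FRCs, and *Bmp2* (at least 2.84-fold), *Eng* (5.08-fold) and *Tgfb1* in LECs. *Tgfb1* read 12.04, 11.79 and 11.78 in LECs and 8.49, 8.45 and 8.56 in FRCs (10.3-fold). Of 17 Notch genes, 6 were higher in LECs and 3 in FRCs (median -0.26), the latter under the share of all genes. *Nrarp* (14.2-fold), *Mfng* (at least 11.3-fold) and *Notch4* (6.17-fold) were higher in LECs, and *Dlk1* (12.8-fold), *Heyl* (at least 2.98-fold) and *Notch3* (3.29-fold), genes of mural and stromal cells, in FRCs. Guidance genes were called in both directions, 18 of 39 in LECs and 15 in FRCs (median -0.24), with *Sema3a* (16.4-fold) and *Sema6b* (9.7-fold) higher in LECs and *Epha3* (38.2-fold) and *Sema3b* (9.87-fold) in FRCs.

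Contractile genes were higher in FRCs for 12 of 18 and in LECs for 2 (median 1.4). *Acta2*, smooth muscle actin, read 15.64, 15.71 and 15.9 in FRCs and 14.67, 14.31 and 13.32 in LECs (3.15-fold). *Des*, desmin (7.1-fold), *Actg2* (6.87-fold), *Tpm2* (5.82-fold) and *Myl9* (5.15-fold) were higher in FRCs, and *Smtn* (2.03-fold) and *Vcl* (1.37-fold) in LECs. Of 9 tested genes around podoplanin, 3 were higher in each cell type and 3 did not pass (median 0.05). *Cd44*, a hyaluronan receptor that associates with podoplanin, was 4.51-fold and *Cd9* 1.49-fold higher in FRCs. *Msn*, which encodes the ERM protein moesin, was 2.13-fold and the lectin gene *Lgals8* 3.17-fold higher in LECs, while *Rock1* differed by 0.03 and *Rhoc* by 0.05.

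Antigen presentation and interferon genes were mostly higher in LECs. Of 26 MHC and co-signaling genes, 15 were higher in LECs and 4 in FRCs (median -0.71). The checkpoint genes *Cd274*, which encodes PD-L1 (12.39, 13.05 and 12.76 in LECs, 10.13, 9.53 and 9.63 in FRCs, 7.83-fold), and *Vsir* (14.5-fold), the peptide transporter *Tap1* (3.67-fold) and the immunoproteasome chain *Psmb9* (4.25-fold) were higher in LECs. *Cd276* (8.04-fold), *Tnfsf9* (at least 5.9-fold), *Cd80* and *Icosl* were higher in FRCs, and the class II gene *H2-Ab1* differed by -0.06. Of 18 interferon response genes, 11 were higher in LECs and 1, *Oasl2*, in FRCs (median -0.86), with *Isg15* (2.74-fold) among the former. Complement genes were divided, 6 of 14 higher in LECs and 4 in FRCs (median -0.22). *C1s1* (28-fold), *Masp1* (18.1-fold), *C4b* (11.5-fold) and *Serping1* (4.97-fold) of the early pathway were higher in FRCs, and *C1qb* (at least 2.09-fold) and *C2* (1.39-fold), also of the early pathway, *Cfb* (3.65-fold) and *Cfp* (5-fold) of the alternative pathway and the surface protectors *Cd55* (9.32-fold) and *Cd59a* (2.78-fold) in LECs. Leukocyte markers were higher in LECs for 5 of 10 (median -0.62) and myeloid markers for 6 of 12 (median -0.44), beside 23.9% of all genes. The others did not pass. Median signals of the leukocyte list were 6.04 to 6.77 over FRC replicates and 7.26 to 7.81 over LEC replicates, and of the myeloid list 5.44 to 5.56 and 5.78 to 6.19. *Cd53* read 7.47, 8.0 and 7.91 in LECs and 5.19, 4.87 and 5.27 in FRCs, and *Fcer1g* 8.31, 7.9 and 7.43 against 5.93, 5.32 and 5.81, and the other myeloid markers higher in LECs were *Lyz2* (means 7.55 against 5.8), *Cd14* (11.22 against 9.63), *C1qb* (6.69 against 5.16), *C1qc* (6.04 against 5.05) and *Clec7a* (5.61 against 5.01). Among the 6 that did not pass, *Csf1r* and *Adgre1* had LEC means of 5.81 and 5.11. Their part in the immune gene differences was not tested.

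Enzyme and growth factor systems had their own division. Of 15 retinoic acid genes, 8 were higher in FRCs and 2 in LECs (median 0.7), with *Crabp1* (at least 22.9-fold), *Aldh1a1* (at least 12.2-fold) and *Stra6* (5.56-fold), which bind, make and take up retinoids, in FRCs. *Nos3* and the tryptophan-degrading *Ido1* (6.68-fold) were higher in LECs, whereas the nitric oxide receptor chains *Gucy1a1* (5.88-fold) and *Gucy1b1* (4.92-fold) and the prostaglandin synthases *Ptgis* and *Ptges* (6.13-fold) were higher in FRCs. These lie in a list of 17 genes with 8 higher in FRCs and 5 in LECs (median 0.06). Of 13 IGF genes, 10 were higher in FRCs and 1, *Igf1r*, in LECs (median 1.31), and *Igfbp7* read 14.86, 14.77 and 14.77 in FRCs and 14.98, 14.84 and 14.9 in LECs. Of 11 lipid genes, 6 were higher in LECs and 3 in FRCs (median -0.55). *Gpihbp1*, which anchors lipoprotein lipase on endothelium, was 17.4-fold higher in LECs and the lipase gene *Lpl* 8.53-fold higher in FRCs, where its mean of 15.88 lay near the top of the range. Of 9 sphingosine-1-phosphate genes, 5 were higher in FRCs, with *S1pr2* (7.1-fold) and *Plpp3* (4.3-fold), and 1, *Plpp2*, in LECs (median 0.66).

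Hox genes were called in both directions, also within the Hoxb and Hoxc clusters, and those of the Hoxa cluster are given in the figure alone. Of 25 tested, 12 were higher in LECs, 5 in FRCs and 8 did not pass (median -0.38). The FRC share was near the 21.1% of all genes. Hoxd genes on chromosome 2 (74679558 to 74748271 on GRCm38, from *Hoxd11* to *Hoxd3*) were higher in LECs, namely *Hoxd10* (at least 111-fold), *Hoxd9* (14.6-fold), *Hoxd4* (8.59-fold), *Hoxd8* (4.92-fold) and *Hoxd3* (4.62-fold), and *Hoxd11*, which stayed near background, did not pass. In the Hoxc cluster on chromosome 15 (102966796 to 103036856, from *Hoxc10* to *Hoxc4*), *Hoxc9* read 11.44, 11.33 and 10.82 in FRCs and 6.12, 5.77 and 5.62 in LECs (41-fold), *Hoxc10* differed at least 15-fold and *Hoxc6* 3.1-fold toward FRCs. *Hoxc4* was 1.31-fold higher in LECs at means near background (5.66 and 6.05). *Hoxb4* to *Hoxb7* were higher in LECs by 1.63-fold to 6.3-fold and *Hoxb2* in FRCs by 2.75-fold. Naive BEC means of *Hoxd10* and *Hoxc9* were 9.65 and 5.96, and DN means were 5.96 and 8.45. The directions of *Hoxd10*, *Hoxd9*, *Hoxc9* and *Hoxc10* were the same and passed the test in tumor mice.

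**Figure D5:**
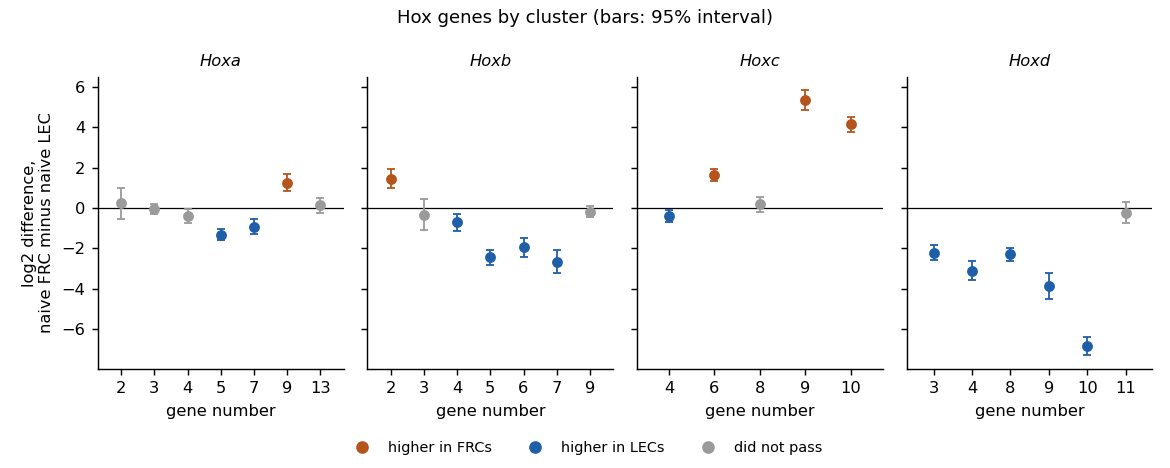
Log2 difference between naive FRCs and naive LECs (vertical axis) of 25 Hox genes, by cluster and gene number (horizontal axis), with the 95% interval as a bar. Points are brown where the gene was higher in FRCs, blue where it was higher in LECs and gray where it did not pass. The Hoxd panel descends to *Hoxd10* at -6.86, and *Hoxc9* at 5.36 is the highest point.

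Some genes were of near-equal signal, which was read from the 95% interval of the difference lying within 0.5 either way and not from a missed threshold. Of 10182 genes with both means above background, 1961 met this. The 15 brightest of them were translation genes (*Eef1a1*, *Rplp1*, *Rps2*, *Rpl41*, *Rps29*, *Rpl38*, *Rpl23*, *Rpl9* and *Rps12*), *Actb*, the ferritin gene *Fth1*, *Ubb-ps* and 3 genes of secreted proteins known from salivary and other glands, *Bpifa2*, *Pip* and *Dcpp1*. *Bpifa2* read 16, 15.94 and 16.02 in FRCs and 15.91, 16.02 and 16.02 in LECs, and its BEC and DN means were 15.89 and 15.93. Such signals lie at the top of the range, where a difference can be compressed, which also holds for the folds of *Acta2*, *Cldn5*, *Col6a1*, *Dcn*, *Loxl1*, *Mmp2* and *Plpp3*, with means of 15.41 for *Dcn* to 15.75 for *Acta2*. Immediate early genes, which dissociation is known to induce, were bright in both cell types, and 7 of 19 were of near-equal signal, 6 higher in FRCs and 1 in LECs (median 0.21). *Fos* read 15.07, 15.01 and 15.1 in FRCs and 14.69, 14.94 and 14.9 in LECs, and *Dusp1* 15.06, 14.91 and 14.99 against 14.98, 14.7 and 15.09, while *Egr2* was 5.67-fold higher in FRCs. Of 18 cell cycle genes, 8 were higher in LECs and 1, *Ccnd2* (5.73-fold), in FRCs (median -0.61). *Ccnd1*, cyclin D1, was 5.9-fold higher in LECs, as were the replication genes *Mcm3* (4.26-fold) and *Mcm2* (3.71-fold), whereas *Top2a* (-0.46) and *Cdk1* (0.67) did not pass. Of 12 housekeeping genes, 5 were higher in LECs, 1 in FRCs and 6 did not pass (median -0.33), and *Gapdh* (1.61-fold) and *Hprt* (1.75-fold) were higher in LECs and *Actb* (-0.04) and *Tbp* (-0.17) were of near-equal signal, although the mean over all *Actb* probes differed by 0.76.

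Markers of other cells were read beside the 21.1% of all genes higher in FRCs and the 23.9% higher in LECs. Those of epithelium and of pericytes and smooth muscle had larger shares in FRCs, and those of Schwann cells in both. Markers of B cells, T cells, red cells, exocrine pancreas and adipocytes had shares near or under these. Those of blood endothelium, leukocytes and myeloid cells, described above, had larger shares in LECs. Epithelial markers were higher in FRCs for 6 of 8 and did not pass for 2 (median 1.71, with replicate medians of 10.65 to 10.76 in FRCs and 9.3 to 9.84 in LECs), and *Krt14* read 14.63, 14.83 and 14.9 in FRCs, 12.67, 12.84 and 11.7 in LECs and 8.18 in BECs on average. *Epcam*, another gene of epithelium, did not pass the background level in any group, but it has 1 probe, and a dim probe gives little measure of a level. Pericyte and smooth muscle markers were higher in FRCs for 7 of 11 and in LECs for 1, *Mcam* (median 1.72). Of 7 B and plasma cell markers, 2 were higher in LECs, *Cd79b* (3.2-fold) and *Ms4a1*, and 5 did not pass (median -0.26). Of 5 T cell markers, *Cd8b1* was higher in FRCs, although its other probes differed by -0.02 and -0.14. Hemoglobin genes, from red cells, varied among replicates, with *Hba-a1* at 13.93, 11.25 and 13.03 in FRCs and 13.95, 14.59 and 12.76 in LECs, and the 4 red cell markers did not pass (median -0.77). Of 7 Schwann cell markers, 3 were higher in each cell type (median 0.18), and of 13 exocrine pancreas and 4 adipocyte markers 1 each was higher in LECs and the others did not pass (medians -0.09 and -0.45). Among the pancreas markers that did not pass, an amylase gene was bright in both, with means of 15.87 in FRCs and 15.75 in LECs, near the top of the range.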

How the data were processed

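The deposited log2 values, which the authors summarised per probe from Illumina bead arrays, were used for all 48 arrays. The software, normalization and array test behind them are not given in the sources used here. The deposited green intensity of each bead was used for bead counts and as an alternative. Probes with a value on every strip were quantile normalized, strips of a replicate were averaged, and genes were named from GEO's platform annotation, where a check by gene ID against RefSeq (GRCm38.p6) changed no symbol. Each gene was represented by its probe of highest mean. Differences were tested with limma 3.58.1 in R 4.3.3 on the 6 naive replicates without a block, with empirical Bayes moderation and Benjamini-Hochberg adjustment over 13041 genes, and the 6 tumor replicates were fitted in the same way. The script was tested on simulated data. The number of arrays limits the precision. Alternatives changed normalization, background, probe choice, strips, model, variance and test, and left out each replicate.

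Members and lists were chosen with earlier results of these data known. The genes named are those of the sort and identity markers, the 15 with the largest non-overlapping difference in each direction, up to 6, 3 and 4 members of each list by adjusted p and direction or, where they did not pass, by signal, the partners of the 36 pairs, and the 15 brightest of near-equal signal. Chosen after their values were seen were *Acta2*, *Adgre1*, *C4b*, *Cdh11*, *Cdh5*, *Cldn5*, *Clec14a*, *Col4a1*, *Col4a2*, *Colec12*, *Csf2*, *Cxcl1*, *Cxcl9*, *Dcn*, *Dusp1*, *Epcam*, *Fn1*, *Fos*, *Hoxb2*, *Hoxb4*, *Hoxb7*, *Hoxc4*, *Hoxd11*, *Icosl*, *Ido1*, *Itga8*, *Ltbp2*, *Mmp2*, *Mmrn2*, *Nfkb2*, *Rasip1*, *Smoc1*, *Tbp*, *Thy1*, *Timp1*, *Timp3*, *Top2a* and *Zeb1*.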

Additional observations from a re-analysis of the deposited data

Results flagged for a closer look

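The difference between FRCs and LECs was itself compared between naive and tumor mice, in a limma fit of the 12 replicates of both states. Of 13041 genes, 459 passed at an adjusted p under 0.05. Of the 306 tested genes named here, 27 did, and for each the value is the naive difference minus the tumor difference on the log2 scale. Many of the 306 were named for a small adjusted p or a large difference in the same naive replicates. That choice favors naive differences wider than those in tumor mice, so their share cannot be set against that of all genes.

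Among genes higher in LECs of naive mice, *Mmp9* changed by -4.44, since its naive difference of -4.4 was 0.04 in tumor mice. *Csf3* (-4.11), *Sele* (-3.07), *Madcam1* (-3.04), *Traf1* (-2.62), *Cd14* (-2.39), *Mmp13* (-2.28) and *Il33* (-1.95) followed, and *Csf3* (1.43) and *Il33* (0.87) were higher in FRCs of tumor mice. *Mcm3* (-1.91), *Bmp2* (-1.82), *Vcam1* (-1.8), *Hoxd9* (-1.66), *Cfb* (-1.45), *Nfkb2* (-1.39), *Ccnd1* (-1.36), *Samsn1* (-1.07), *Hoxd8* (-1.04) and *Psmb9* (-0.87) were likewise further toward LECs in naive than in tumor mice. *Csf1r* changed by -1.15, *Cd80* by -1.4 and *Col26a1* by -1.34, at a probe whose naive difference (3.17) is opposite in sign to that of its other probe (-0.59).

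In the other direction, *Cd276* changed by 2.75, which is wider than the change of *Traf1*, *Angpt2* by 1.94, *Thy1* by 1.88, *Crabp1* by 1.81, *Epha3* by 1.1 and *Plod1* by 1. *Thy1* was higher in FRCs of naive mice (0.55) and in LECs of tumor mice (-1.32). The array position of the replicates coincides with the state on each slide, and its part in these values was not tested.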

How the results depend on the processing

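Under the alternatives tried, *Pdpn* did not pass in any (0.1 to 0.31), and *Prox1* (-7.66 to -5.14) and *Col1a1* (5.36 to 6.27) passed in all. The ends 0.1, -7.66 and 6.27 came from the fit without FRC replicate 3 and LEC replicate 2, which was not planned. Leaving out each replicate gave 2276 to 2825 genes higher in naive FRCs, 2490 to 3145 in naive LECs and 1238 to 1712 of near-equal signal (1238 without FRC replicate 2, 1295 without LEC replicate 1 and 1303 without LEC replicate 3), and in tumor mice 1696 to 2228 higher in FRCs and 1754 to 2376 in LECs. Requiring a difference of 1 log2 left 1506 and 1325 genes in naive and 1345 and 1255 in tumor mice. The count of near-equal genes was 1161 on the second strip alone, 1005 in a model of all 8 groups, 1001 in a model of the 4 groups of a state and 3404 on bead intensities without background correction, and the cause was not tested. The main test did not pair the samples by replicate number. Same-numbered FRC and LEC replicates were compared by their deviations from group means over genes. These correlated at 0.14, -0.07 and 0.18 in naive and 0.2, 0.1 and 0.05 in tumor mice, which does not settle whether the numbers pair the samples. As a hint from the data alone, 2 of the 3 naive and 3 of the 3 tumor pairs correlated best with their own number, and with a replicate block 2624 genes were higher in naive FRCs, 2848 in naive LECs and 1626 of near-equal signal, with 2228 and 2401 in tumor mice. Cyclic loess moved the median difference to 0.02 and the FRC share of called genes from 46.8% to 53.4%. The methods' t-test, named there for the study's statistics in general and not for the arrays, after Benjamini-Hochberg adjustment, called 2304 and 2632 genes. Of the 303 other genes named, 52 lost the call under some alternative. The methods' t-test ended it for 27, the models of all 8 groups and of the 4 groups of a state for 30 and 27, the second brightest probe for 11, and each other setting that kept all replicates for at most 8. Leaving out a single replicate ended the call, at adjusted p from 0.05 to 0.14, for *C2*, *Ccl21a*, *Cd9*, *Cdh11*, *Csf2*, *Cxcl9*, *Flt1*, *Hoxb4*, *Hoxc4*, *Ido1*, *Igf1r*, *Itga8*, *Klf4*, *Ms4a1*, *Msn*, *Tbx3*, *Tek*, *Vcl* and *Zeb1*. Under other settings alone it ended, at adjusted p from 0.051 to 0.75, for *Ackr4*, *Angpt2*, *C1qb*, *C1qc*, *Ccl21c*, *Cd79b*, *Cd80*, *Cd8b1*, *Cfb*, *Clec4g*, *Clec7a*, *Csf1*, *Cxcl1*, *Cxcl10*, *Cxcl13*, *Dll1*, *Gpihbp1*, *Gsn*, *Hoxc6*, *Il33*, *Itgb7*, *Lama5*, *Lyz2*, *Mbp*, *Meox2*, *Mmp13*, *Nfkb2*, *Notch3*, *Notch4*, *Pgf*, *Thy1*, *Tnfsf11* and *Vcam1*. Of the genes named, 7 called or near-equal ones changed sign in some alternative. *Clec7a*, dim in both cell types, did so at its second probe (0.04), on the second strip alone (0.35) and on bead intensities without background correction (0.07). The others did so with another choice of probe, namely the second probes of *Col26a1* (-0.59), *Mbp* (1.94), *Cd8b1* (-0.14), *Csf3* (0.24) and *Rpl38* (0.82), and the probe means of *Actb* (0.76) and *Rpl38* (0.41).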
